A study of Mus musculus with 2 samples.

Results

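Among the CD31+ cells isolated from the mesentery of postnatal mice, a small group carried the leukocyte gene Ptprc, lacked the endothelial gene Cdh5 and expressed genes of dividing cells. These proliferating leukocytes, most of them B and T lymphocytes, were selected cell by cell from the raw counts of unique molecular identifiers (UMIs), each of which stands for 1 captured RNA molecule. A cell was selected with at least 2000 UMIs, at most 10% mitochondrial UMIs, at least 1 Ptprc UMI, no Cdh5 UMI, and at least 5 UMIs of Mki67 and Top2a together. The selection held 197 of the 11273 cells, 95 of 6814 from control and 102 of 4459 from Flcn iΔEC mice. Since Ptprc, Cdh5, Mki67 and Top2a chose the cells, their levels are given as a description only.

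The data comprised 1 library of control mice and 1 library of Flcn iΔEC mice (labelled KO), both of the C57BL/6 strain and taken at P8, with the cells of 3 mice pooled in each. Flcn iΔEC mice carried Cdh5-BAC-CreERT2 and Flcn flox/flox alleles, and the genotype of the controls is not given further in the sources used here. Both groups received 40 µg of 4-hydroxytamoxifen under the skin on 4 occasions, at P2, at P3.5, at P5 and last at P6.5, and CD31+ cells were captured on magnetic beads. Cre was driven by the promoter of Cdh5, a gene of endothelial cells, so the lymphocytes described here were not the cells it was meant to recombine.

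A lymphocyte that starts to divide passes through S phase, in which DNA is copied, and through G2 and mitosis (M), in which chromosomes are condensed and separated. Mki67 encodes a protein that coats mitotic chromosomes and Top2a encodes topoisomerase II alpha, which untangles copied DNA. B lymphocytes carry the antigen receptor subunit Cd79a, T lymphocytes carry the CD3 chains Cd3d, Cd3e and Cd3g, and resting lymphocytes recirculate between blood and lymphoid tissue with the help of homing receptors such as Ccr7.

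The libraries held 64639756 UMIs in control cells and 60805779 UMIs in the Flcn iΔEC mice, with medians of 7283 and 8587 UMIs per cell. Each condition was 1 library, so no test between conditions was possible, and every 95% interval given here covers counting error only. The selected control cells held 0 UMIs of Xist and 365 UMIs of 4 Y-linked genes, whereas the selected Flcn iΔEC cells held 4278 and 0, so that sex, genotype and library cannot be told apart. The libraries shared 6 cell barcodes, of which 1 belonged to a selected cell. Scrublet marked 142 control cells (2.08%) and 37 Flcn iΔEC cells (0.830%) as doublets, and these included 1 selected control cell and 0 of the 102 selected Flcn iΔEC cells, which allows a share of up to 2.94%.

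The promoters of the selecting genes and of genes that accompany them are shown first, because the S phase and G2/M genes described below carry different short motifs there. The windows run from 250 bases before to 50 bases after the transcription start (RefSeq, GRCm38.p6) and are printed 5′ to 3′ along the gene. Capitals mark 3 motifs searched on both strands. These were TTTGAA, the core of the cell-cycle homology region bound by complexes that time G2/M genes, CCAAT, the box bound by NF-Y, and TTTNNCGC, a form of the site bound by E2F factors, which time S phase genes. Mki67 (window chr7:135716330-135716629, minus strand), Top2a (chr11:99024140-99024439, minus strand) and Ccnb2, encoding the mitotic cyclin B2 (chr9:70421505-70421804, minus strand), each held 2 matches of TTTGAA, with 3, 6 and 3 of CCAAT. Mcm5, a subunit of the helicase that opens DNA for copying (chr8:75109259-75109558, plus strand), held 0 of TTTGAA, 3 of CCAAT and 2 overlapping matches of TTTNNCGC.
Mki67: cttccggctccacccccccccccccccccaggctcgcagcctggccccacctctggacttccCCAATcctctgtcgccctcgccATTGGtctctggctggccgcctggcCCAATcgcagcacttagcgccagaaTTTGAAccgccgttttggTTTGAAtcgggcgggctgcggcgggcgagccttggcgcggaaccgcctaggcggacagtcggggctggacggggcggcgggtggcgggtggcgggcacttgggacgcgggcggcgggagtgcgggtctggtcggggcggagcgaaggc
Top2a: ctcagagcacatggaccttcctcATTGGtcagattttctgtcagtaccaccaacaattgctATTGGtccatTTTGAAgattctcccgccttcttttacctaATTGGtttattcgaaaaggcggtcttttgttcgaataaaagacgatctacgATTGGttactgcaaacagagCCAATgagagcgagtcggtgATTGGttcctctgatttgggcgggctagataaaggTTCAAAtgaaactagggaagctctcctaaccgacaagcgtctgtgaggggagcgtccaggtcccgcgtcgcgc
Ccnb2: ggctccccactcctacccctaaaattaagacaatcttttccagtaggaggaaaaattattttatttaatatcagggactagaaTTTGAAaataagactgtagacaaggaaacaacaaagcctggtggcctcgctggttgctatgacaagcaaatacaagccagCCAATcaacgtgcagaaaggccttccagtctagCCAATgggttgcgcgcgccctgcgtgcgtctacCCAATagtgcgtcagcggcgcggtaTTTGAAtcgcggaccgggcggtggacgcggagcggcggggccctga
Mcm5: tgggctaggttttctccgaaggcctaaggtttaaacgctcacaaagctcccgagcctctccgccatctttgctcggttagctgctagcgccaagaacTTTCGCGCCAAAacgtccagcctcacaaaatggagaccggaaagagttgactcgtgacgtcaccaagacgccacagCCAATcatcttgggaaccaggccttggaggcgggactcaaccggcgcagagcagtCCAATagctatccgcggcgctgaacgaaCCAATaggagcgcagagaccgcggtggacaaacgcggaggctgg

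Over the S phase and G2/M lists of 30 genes each, the motifs were split in the same way. Windows were found for 27 of the G2/M genes and 25 of the S phase genes. TTTGAA stood in 18 of 28 windows of G2/M genes (64.3%) and in 3 of 30 windows of S phase genes (10.0%), against 17.9% of all 32851 windows. TTTNNCGC stood in 40.0% of the S phase windows and in 3.57% of the G2/M windows, against 5.17% of all. CCAAT was found in 85.7% of the G2/M and 56.7% of the S phase windows, against 37.4% of all. A match is a run of letters and not a measured binding site.

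The selected cells were first divided by lineage markers. By a limit of 3 UMIs, a B cell had at least 3 Cd79a UMIs and over 3 times as many as of Cd3d, Cd3e and Cd3g together, and a T cell the reverse. In the control, 37 of the 95 cells were B cells (38.9%, 29.1 to 49.5), 47 were T cells (49.5%) and 11 met neither limit (11.6%). In the Flcn iΔEC library, 57 of the 102 cells were B cells (55.9%, 45.7 to 65.7), 25 were T cells (24.5%, 16.5 to 34.0), 19 met neither limit (18.6%) and 1 was mixed, with 11 UMIs of Cd79a and 13 of Cd3g. Cd79a had a median of 40 UMIs in the control B cells (15 to 90) and 43 in the Flcn iΔEC B cells (12 to 108). The CD3 sum had a median of 33 UMIs in the control T cells (3 to 73) and 37 in the Flcn iΔEC T cells (4 to 68). Since Cd79a and the CD3 genes assigned the lineages, these values describe the assignment and do not check it. B cells made up the larger share of the selected cells in Flcn iΔEC mice and T cells in the controls. Among non-cycling cells, defined by the same limits with no UMI of Mki67 or Top2a, B cells made up 42.8% in control cells and 47.9% in Flcn iΔEC cells and T cells 49.1% and 41.7%.

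**Figure D1:**
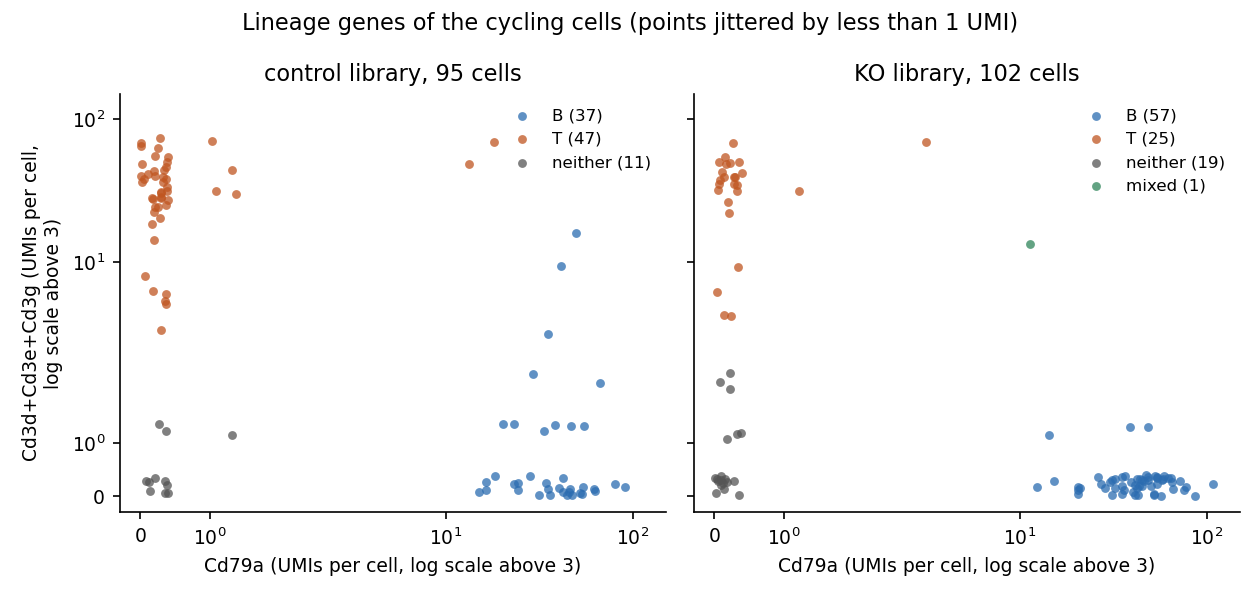
Each point is 1 of the 197 selected cells, placed by its UMIs of Cd79a (x axis) and of Cd3d, Cd3e and Cd3g together (y axis), on axes that are linear near 0 and logarithmic above, with a random offset of less than 1 UMI, for control (left) and Flcn iΔEC (right). B cells lie along the x axis and T cells along the y axis, with 37 and 47 cells in control cells and 57 and 25 in Flcn iΔEC cells.

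The 30 cells that met neither limit were not all lymphocytes. Each was named after the list with the most detected markers, given at least 3. Il7r, Kit, Gata3, Ncr1, Flt3 and Csf1r are markers of these lists, so their UMIs below describe the naming. ILC-like cells numbered 3 among control and 7 among Flcn iΔEC cells, and all 10 held UMIs of Il7r, the interleukin-7 receptor (median 13.5, 2 to 47), and of Kit, a growth factor receptor. Gata3, a transcription factor of innate lymphoid cells (ILC) and T cells, was found in 7 of these 10 cells. NK and cytotoxic-like cells numbered 2 and 3, and 4 of these 5 held Ncr1, a receptor of natural killer cells. Myeloid-like cells numbered 4 and 2, of which 5 held Flt3, a receptor of progenitors and dendritic cells, and 0 of the 30 cells held Csf1r, the receptor of macrophages, which allows a share of cells with a UMI of up to 10.0%. A cell that expresses a gene can hold no UMI of it, so these limits are not limits on expressing cells. Il7r and Kit were not particular to the ILC-like cells, since 3 and 5 of the 6 myeloid-like cells held them. A further 1 and 3 cells stayed unnamed.

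The last 5 cells, 1 control and 4 Flcn iΔEC, had 1 Ptprc UMI each, 352 to 2652 UMIs of 8 epithelial genes (such as Epcam and Krt8) and 39767 to 180638 UMIs in all, so they did not carry the profile of leukocytes. With 3 cells that were assigned a lineage, 8 selected cells had at least 3 of the 8 epithelial genes, 2 from control and 6 from Flcn iΔEC mice. These included a control B cell with 623 epithelial UMIs of 51503 and an Flcn iΔEC T cell with 1666 of 112786, 4 CD3 UMIs and 1 Ptprc UMI. In all cells that passed the first 4 limits, such cells numbered 16 in the control (0.308%) and 12 in Flcn iΔEC cells (0.444%). Pecam1, which encodes the CD31 used for the capture, was found in 73 of the 95 and 73 of the 102 selected cells.

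The selecting genes had similar levels in both libraries. Mki67 and Top2a together had a median of 23 UMIs per selected control cell (5 to 81) and 24 per Flcn iΔEC cell (5 to 72). Mki67 had medians of 6 (0 to 37) and 9 (0 to 32), Top2a of 16 (2 to 51) and 14 (2 to 48), and Ptprc of 9 (1 to 42) and 6 (1 to 31). The limit of 5 UMIs lay at the start of a sparse stretch, with 5 control cells each at 5 and 6 UMIs and 3 and 2 Flcn iΔEC cells there. Just outside it were 49 and 16 control and 41 and 24 Flcn iΔEC cells at 3 and 4 UMIs. Most selected cells were well above it, with 77 control and 94 Flcn iΔEC cells at 10 or more UMIs. The selected cells were also the deeper ones, with medians of 22048 UMIs and 4220 genes in the control (4110 to 178730 UMIs) and 19508 UMIs and 3938 genes in Flcn iΔEC cells (4644 to 180638 UMIs). Non-cycling cells had medians of 7174 and 7765 UMIs. Levels are therefore given as CPM, the counts of a gene over all summed UMIs of the cells, scaled to 1000000, and shares of cells after thinning each cell to 2000 UMIs. The mitochondrial share was 4.02% in the selected and 4.54% in the non-cycling control cells, and 4.25% and 4.60% in the Flcn iΔEC cells (medians).

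Flcn (chr11:59791408-59810016, minus strand, GRCm38), the gene targeted in the study, was low in the selected cells of both libraries. It had 26 UMIs in the control (11.2 CPM, 7.33 to 16.4) and 18 in the Flcn iΔEC cells (7.08 CPM, 4.20 to 11.2), with overlapping intervals. Non-cycling cells had 17.8 CPM in control cells and 18.4 CPM in Flcn iΔEC cells. Tfe3, a transcription factor whose entry into the nucleus the FLCN protein limits, had 25.9 CPM in the selected control and 18.1 CPM in the selected Flcn iΔEC cells. The reads come from the 3′ end of transcripts, and whether they cover the floxed part is not given in the sources used here, so these values do not check the deletion.

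The proliferating cells made up a larger share of the Ptprc-positive, Cdh5-negative cells in the library of Flcn iΔEC mice. Such cells numbered 5193 from control and 2705 from Flcn iΔEC mice, of which 1.83% (1.48 to 2.23) and 3.77% (3.08 to 4.56) were selected. Of all cells, they were 1.39% and 2.29%. After every cell had been thinned to 5000 UMIs, with 549 and 154 shallower cells left out, the shares were 1.10% and 2.18%, so the order of the libraries was the same at equal depth. After thinning to 2000 UMIs, at least 1 UMI of Mki67 or Top2a was found in 6.09% of control and 8.70% of Flcn iΔEC cells (unthinned 17.2% and 22.0%).

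The libraries differed by more in the share of B cells than of T cells. Of the control B cells, 37 were selected (1.69%, 1.19 to 2.32), and of the Flcn iΔEC B cells 57 (4.46%, 3.40 to 5.74). Of the T cells, 47 (1.83%, 1.35 to 2.42) and 25 (2.19%, 1.42 to 3.22) were selected, with overlapping intervals. Of the cells of neither lineage, 3.37% (1.70 to 5.96) were selected in the control library and 7.34% (4.47 to 11.2) in that of Flcn iΔEC mice. The selected cells of neither lineage included the cells with epithelial genes and 1 Ptprc UMI, 1 of the 11 in the control and 4 of the 19 in Flcn iΔEC mice. At 5000 UMIs per cell, the B cells gave 0.875% and 2.40% and the T cells 0.982% and 1.62%. Whether the gap between the libraries was wider in B than in T cells was not tested, since each library is 1 sample.

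**Figure D2:**
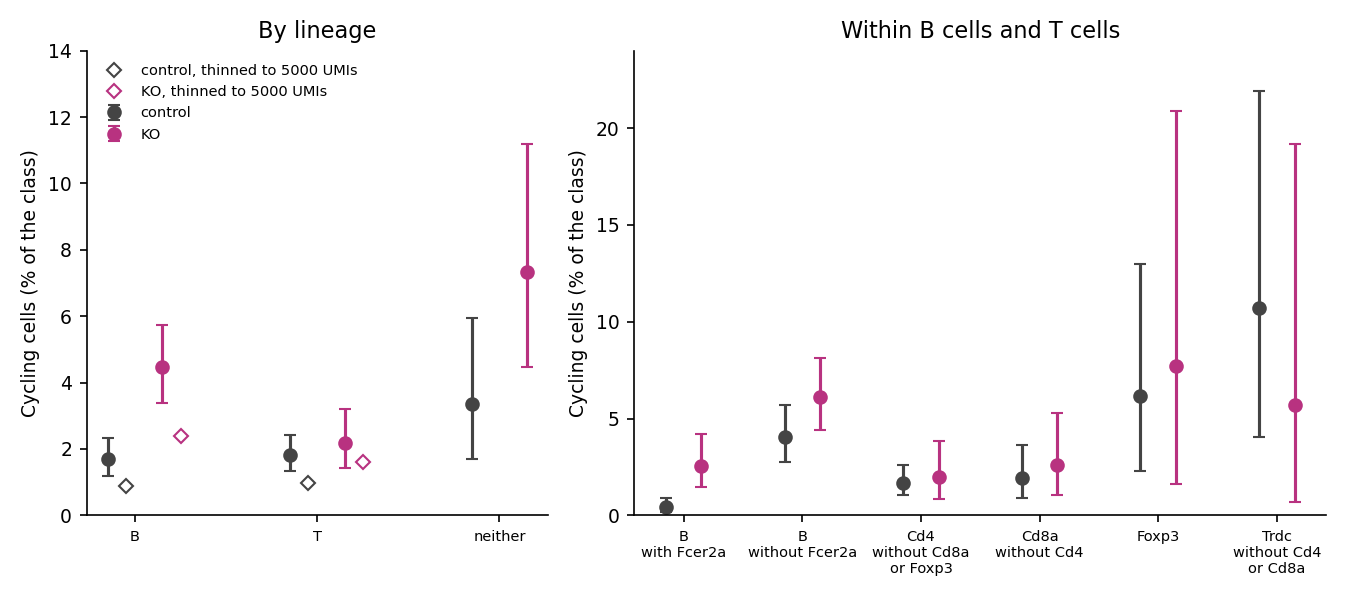
Share of selected cells (y axis, percent) among all Ptprc-positive, Cdh5-negative cells of a lineage or subset (x axis), for the control and the Flcn iΔEC library, with exact 95% binomial intervals, and diamonds for the shares after thinning to 5000 UMIs. B cells stand at 1.69% and 4.46%, T cells at 1.83% and 2.19%, and B cells with a UMI of Fcer2a at 0.421% and 2.56%, below those without one, at 4.06% and 6.09%.

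The proliferating T cells included cells with a UMI of marker genes of helper, cytotoxic, regulatory and gamma-delta T cells. In the control, 23 of the 47 cells held Cd4 without Cd8a (48.9%), 9 Cd8a without Cd4, 2 both and 13 neither, of which 6 held Trdc, the constant part of the delta chain. In the Flcn iΔEC library, 11 of the 25 cells held Cd4 without Cd8a (44.0%), 7 Cd8a without Cd4, 1 both and 6 neither, of which 2 held Trdc. Il7r was found in 31 of the 47 (66.0%) and 17 of the 25 T cells (68.0%), and in 2 of the 37 and 4 of the 57 B cells. Il7r is also in the list of B cell progenitor genes used below, and whether its UMIs in B cells were background was not tested. Cd4, Cd8a and Foxp3 were each found in 0 of the 37 control and 0 of the 57 Flcn iΔEC B cells, which allows shares of cells with a UMI of up to 8.11% and 5.26%. The median depths were 23023 and 19536 UMIs in the B cells and 19718 and 17171 UMIs in the T cells.

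Foxp3 (chrX:7573644-7595245, plus strand), the transcription factor that defines regulatory T cells, was found in 6 of the 47 control cells (12.8%), with 1, 3, 4, 2, 1 and 9 UMIs. It was found in 3 of the 25 Flcn iΔEC cells (12.0%), with 2, 4 and 5 UMIs, all of them with Cd4. Of the 6 control cells, 4 held Cd4, 4 held Il7r and 1 held Cd8a. Most proliferating T cells thus held no Foxp3 UMI. The control cell with 9 of the 20 Foxp3 UMIs had 58154 UMIs in all and held B cell transcripts as well, with 18 UMIs of Cd79a beside 69 of the CD3 chains. Its level was 19.5 CPM (11.9 to 30.2) in cycling and 11.1 CPM (9.55 to 12.8) in non-cycling control T cells, and 20.1 CPM (10.0 to 36.0) and 7.67 CPM (5.80 to 9.96) in Flcn iΔEC cells. At 2000 UMIs per cell, Foxp3 was found in 2.06% of cycling and 1.66% of non-cycling control T cells and in 3.17% and 1.07% of the Flcn iΔEC T cells (unthinned non-cycling 3.65% and 2.73%). In the control the difference rested on the cell with B cell transcripts, since without it the level was 11.4 CPM (5.69 to 20.4) and the thinned share 1.51% in cycling cells, beside 11.1 CPM and 1.66% in non-cycling cells. In Flcn iΔEC cells the level and the thinned share were higher in cycling cells, on 11 UMIs in 3 cells, and without the cell with the most they were 11.6 CPM (4.26 to 25.3) and 2.08%.

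All 6 genes of the regulatory list, Foxp3 among them, were above the non-cycling T cells in both libraries, as were 3837 of all 7880 genes tested in T cells. The list had median log2 ratios of 1.59 in control cells and 0.84 in Flcn iΔEC cells, and 1 of the 6, Tnfrsf4, was at least 2-fold higher in both. That share is read against the 8.38% of all 7880 genes tested in T cells that were at least 2-fold higher in both libraries. Tnfrsf4, the costimulatory receptor OX40, had log2 ratios of 1.92 and 2.44, resting on 14 of the 47 and 3 of the 25 cells, with up to 63 and 70 UMIs in 1 cell. Ikzf2 (Helios) had 1.76 and 0.78, Il2ra (the interleukin-2 receptor alpha chain) 1.88 and 0.54, Ctla4 (an inhibitory receptor) 1.41 and 0.33, and Tnfrsf18 (GITR) 1.09 and 0.91. Against non-cycling T cells of at least 10000 UMIs, 4 of the 5 genes tested were above in both, with medians of 0.86 and 0.16, and 0 were at least 2-fold higher in both (Tnfrsf4 0.86 and 1.26). Against all non-cycling T cells but without cells of at least 3 epithelial genes, 3 of the 6 were at least 2-fold higher in both. The same held for 589 of all 7775 genes tested.

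Among all Ptprc-positive T cells, the selected share was 6.19% of the 97 control cells with Foxp3 (2.30 to 13.0) and 7.69% of the 39 Flcn iΔEC cells with Foxp3 (1.62 to 20.9). For Cd4 without Cd8a or Foxp3 it was 1.68% of 1194 (1.03 to 2.58) and 1.98% of 405 (0.857 to 3.85), and for Cd8a without Cd4 1.92% of 469 and 2.60% of 269. Cells with Trdc and neither Cd4 nor Cd8a had 10.7% (6 of 56) and 5.71% (2 of 35). A deeper cell has more chance of a UMI of any gene, so subsets defined by a UMI draw in selected cells. Cd4 itself was lower per UMI in cycling T cells, with 58.6 against 109 CPM in control cells and 34.8 against 67.3 CPM in Flcn iΔEC cells, and its thinned shares were 12.3% against 19.6% and 7.09% against 13.2%. Cd8a had 77.1 against 99.0 CPM in control cells and 128 against 102 CPM in Flcn iΔEC cells, with thinned shares of 10.4% against 11.1% and 18.8% against 12.8%, so its direction differed between the libraries.

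The proliferating B cells had low levels of Fcer2a (chr8:3681737-3694175, minus strand), which encodes CD23, a receptor of mature follicular B cells. Its median was 0 UMIs per cycling B cell in both libraries, with maxima of 8 in control cells and 7 in the Flcn iΔEC cells, although these cells were deeper. It had 26.8 CPM (17.2 to 39.8) in cycling against 381 CPM in non-cycling control B cells, and 32.5 CPM (23.2 to 44.3) against 180 CPM in Flcn iΔEC cells. The log2 ratios were -3.77 and -2.43, and after thinning 5.22% against 45.2% and 6.40% against 26.0% of cells held a UMI. Conversely, B cells with a Fcer2a UMI had a selected share of 0.421% (6 of 1426, 0.155 to 0.914) in control cells and 2.56% (15 of 587, 1.44 to 4.18) in Flcn iΔEC cells, and B cells without one 4.06% (31 of 764, 2.77 to 5.71) and 6.09% (42 of 690, 4.42 to 8.14). Fcer2a was below non-cycling B cells of at least 10000 UMIs as well (log2 -2.57 and -1.42).

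The general B cell genes differed by less. Of the 12 genes of the B cell list, 0 were at least 2-fold higher and 1 (Fcer2a) at least 2-fold lower in both libraries, against 5.76% higher and 1.66% lower among all 8298 genes tested in B cells. Cd79a, which chose the lineage, had 1666 against 2279 CPM and 2076 against 2151 CPM. Ms4a1 (CD20) had log2 ratios of -0.07 and 0.04, Pax5, the factor that keeps B cell identity, -0.21 and -0.22, and Ighm, the heavy chain of IgM, 0.12 and 0.28. Ebf1, an early B cell factor, had -0.96 and -0.58.

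Of 12 genes that mark steps of B cell maturation, 3 were at least 2-fold lower in both libraries (Fcer2a, Ccr7 and Bach2) and 0 higher. Among all 8298 genes tested in B cells, 1.66% were lower and 5.76% higher by that limit. The list was chosen after the data were seen, and Fcer2a is also in the B cell list. Ccr7, the receptor that guides cells into lymphoid tissue, had 173 against 486 CPM and 176 against 392 CPM (log2 -1.48 and -1.15). Bach2, a repressor that holds back plasma cell differentiation, had 33.5 against 114 CPM and 33.4 against 90.5 CPM (log2 -1.73 and -1.41). Ighd, the heavy chain of IgD on mature naive cells, had log2 ratios of -1.42 and -0.69. Cd24a, a surface protein that is high on immature B cells, went the other way, with medians of 10 (1 to 39) and 5 (0 to 22) UMIs per cycling cell, 504 against 264 CPM and 281 against 203 CPM, and thinned shares of 58.3% against 36.9% and 41.2% against 31.8%. Vpreb3, a gene of immature B cells, had 253 against 204 CPM and 370 against 232 CPM. Cr2 (CD21) had log2 ratios of -0.51 and 0.47 and Cd93, a gene of early B cells, -1.04 and -0.01, so that these gave no common direction. Against non-cycling B cells of at least 10000 UMIs, 1 of the 12 genes was at least 2-fold lower in both (Fcer2a) and 1 higher (Vpreb3, log2 1.25 and 1.19), whereas Ccr7 had -0.57 and -0.62 and Bach2 -0.73 and -0.79. Of all 6433 genes tested against these cells, 37 were at least 2-fold lower and 313 higher in both.

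Of the 8 progenitor genes, Dntt, Vpreb1 and Igll1 had few or no UMIs in cycling B cells. Myb, a further gene of the list, was found in 8 of the 37 and 13 of the 57 cells. The list summed to 54.7 against 36.9 CPM in control and 29.3 against 36.0 CPM in Flcn iΔEC cells. Its 1 gene with enough counts to be tested had log2 ratios of 0.48 and 0.14, and -0.25 and -0.01 without cells of at least 3 epithelial genes. The 3 of 7 plasmablast genes with enough counts to be tested differed by less than 2-fold. Dntt, the DNA polymerase of early progenitors, had 0 UMIs in the 94 cycling B cells, which allows up to 1.41 CPM over both libraries. Vpreb1 and Igll1, the surrogate light chain of progenitors, had 0 and 0 UMIs in control cells and 11 and 3 in the Flcn iΔEC B cells, where all UMIs of each gene lay in 1 cell. Jchain, the joining chain of secreted antibodies, had 2 and 16 UMIs, of which 12 of the 16 lay in 1 cell. Of the other genes of the plasmablast list, Mzb1, a chaperone of antibody assembly, had 661 against 530 CPM and 447 against 421 CPM, and Irf4, a transcription factor of plasma cells and activated lymphocytes, 132 against 214 CPM and 124 against 203 CPM. Xbp1, a factor of antibody secretion, had 44.6 against 40.6 CPM and 35.0 against 44.9 CPM. Bcl6, the germinal center factor, was lower in cycling cells (log2 -1.69 and -1.36), on 7 and 14 UMIs, but by less than 2-fold against non-cycling B cells of at least 10000 UMIs (-0.91 and -0.88).

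Within the cycle, the proliferating cells covered S phase and G2/M in a continuous range. For each cell, UMIs of the S phase list were taken as a percentage of the S phase and G2/M lists together, without Mki67 and Top2a. The median was 63.7% in the control (0 to 100) and 50.1% in the Flcn iΔEC cells (3.17 to 95.8), over a median of 200 and 177 UMIs per cell. At least as many S phase as G2/M UMIs were found in 58 of 95 control cells (61.1%, 50.5 to 70.9) and in 52 of 102 Flcn iΔEC cells (51.0%, 40.9 to 61.0), with overlapping intervals. Near the dividing line, between 40% and 60%, lay 18 and 27 cells. At the ends, 26 control and 9 Flcn iΔEC cells had 80% or more, and 15 and 21 had 20% or less. B cells had medians of 64.8% in control cells and 46.7% in Flcn iΔEC cells, and T cells of 66.9% and 50.3%. The counts rest on under 20 UMIs in 4 control cells and 1 Flcn iΔEC cell.

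**Figure D3:**
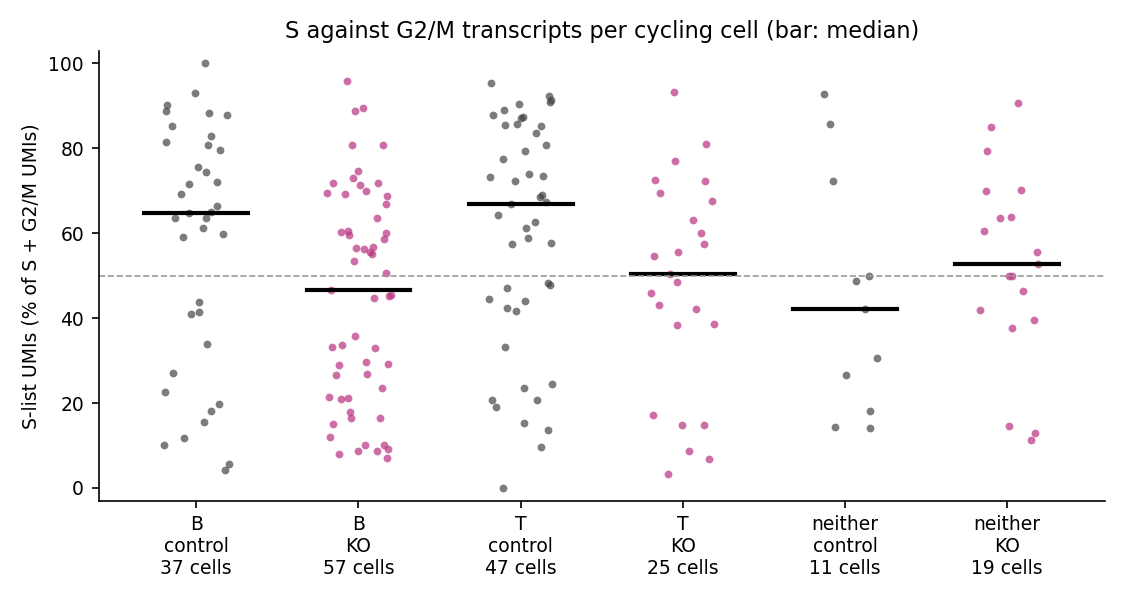
Each point is 1 selected cell, with the percentage of S phase UMIs among its S phase and G2/M UMIs (y axis) by library and lineage (x axis), bars at the medians and a dashed line at 50%. The cells spread over nearly the whole axis, with medians of 64.8% in control and 46.7% in Flcn iΔEC B cells and of 66.9% and 50.3% in T cells.

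The genes of the cell cycle were higher as whole lists, which describes the selection since Mki67 and Top2a are regulated with them. In B cells, all 28 tested S phase genes were at least 2-fold higher in cycling cells in both libraries, with median log2 ratios of 3.30 in control cells and 2.96 in Flcn iΔEC cells. All 24 tested G2/M genes were too, with medians of 5.98 and 5.91. In T cells, 27 of 28 S phase genes (medians 3.60 and 2.93) and all 22 tested G2/M genes (6.75 and 6.49) were higher. Over all genes tested the medians were 0.00 and 0.02 in B cells and 0.17 and 0.23 in T cells. A gene was tested with at least 50 UMIs over cycling and non-cycling cells in each library, and the genes under it included Cdc6, a loading factor of the replication helicase, and Plk1, Bub1, Ttk and Nek2, kinases of mitosis.

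Mcm5 had 191 CPM in cycling and 12.1 CPM in non-cycling control B cells, and 159 and 13.4 CPM in Flcn iΔEC cells. Rrm2, the ribonucleotide reductase subunit that makes DNA building blocks, had 245 against 1.47 CPM and 281 against 1.96 CPM. Ube2c, which helps to destroy cyclins at the end of mitosis, had 483 against 2.35 CPM and 497 against 2.42 CPM. Rrm2 and Ube2c were thus nearly silent in non-cycling B cells. The histone list followed, with 10 of 10 genes in B cells and 11 of 11 in T cells at least 2-fold higher, among them the linker histone gene Hist1h1b with 346 against 3.82 CPM in control and 473 against 4.38 CPM in Flcn iΔEC B cells. Hmgb2, a chromatin protein, had 2462 against 271 CPM and 2986 against 281 CPM. In T cells Stmn1, a regulator of microtubules outside these lists, had 1510 against 43.8 CPM and 1935 against 57.3 CPM, and in B cells 1089 against 31.4 CPM and 1420 against 43.6 CPM, where its median was 22 UMIs per control cell (0 to 57) and 28 per Flcn iΔEC cell (6 to 84).

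Of the cyclins and their inhibitors, 5 of 10 tested genes in B cells and 5 of 12 in T cells were at least 2-fold higher, and these were the same 5, Ccne1, Ccna2, Ccnb1, Ccnb2 and Cdkn2c. The first 4 encode cyclins that drive S phase and mitosis. Cdkn2c encodes p18, an inhibitor of the kinases of G1, and had 34.6 against 3.46 CPM and 44.7 against 4.61 CPM in B cells (log2 3.34 and 3.27). Of 16 genes of Myc and nucleotide synthesis, 3 were at least 2-fold higher in B cells (Mthfd2, Impdh2 and Paics) and 3 in T cells (Shmt1, Shmt2 and Paics), all of them enzymes of folate or purine metabolism. The counts of both lists are read against the 5.76% of all genes in B and 8.38% in T cells that were at least 2-fold higher in both libraries. Against non-cycling cells of at least 10000 UMIs, 1 of 15 genes tested was at least 2-fold higher in both in B cells, Mthfd2 (log2 1.24 and 1.11). In T cells it was 1 of 13, Paics (1.20 and 1.14). These shares are near those of all genes against the same cells, 313 of 6433 in B and 274 of 4963 in T cells. Impdh2 then had 0.67 and 0.73 and Paics 0.93 and 0.77 in B cells, and Shmt2 0.29 and 0.37 in T cells. Myc itself had log2 ratios of -0.02 and -0.50 in B cells and -0.05 and 0.56 in T cells.

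Cells with 1 to 4 UMIs of Mki67 and Top2a, which were outside the selection, stood much closer to the non-cycling than to the selected cells. In control B cells the summed S phase list had 522 CPM with no UMI, 852 CPM with 1 to 4 and 3959 CPM with at least 5, and the G2/M list 215, 262 and 3778 CPM. In control T cells the S phase list had 496, 679 and 5191 CPM. In Flcn iΔEC cells the S phase list had 530, 1169 and 3607 CPM in B cells and 540, 980 and 4168 CPM in T cells. The list of quiescence and recirculation genes ran the other way in all 4 sets of cells, with 6646, 5602 and 3405 CPM in control and 6424, 5575 and 4082 CPM in Flcn iΔEC B cells, and 5262, 4873 and 2844 CPM and 5917, 5438 and 3587 CPM in T cells. The cells of these bands also differ in depth, whose part in these values was not tested beyond the scaling to CPM.

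**Figure D4:**
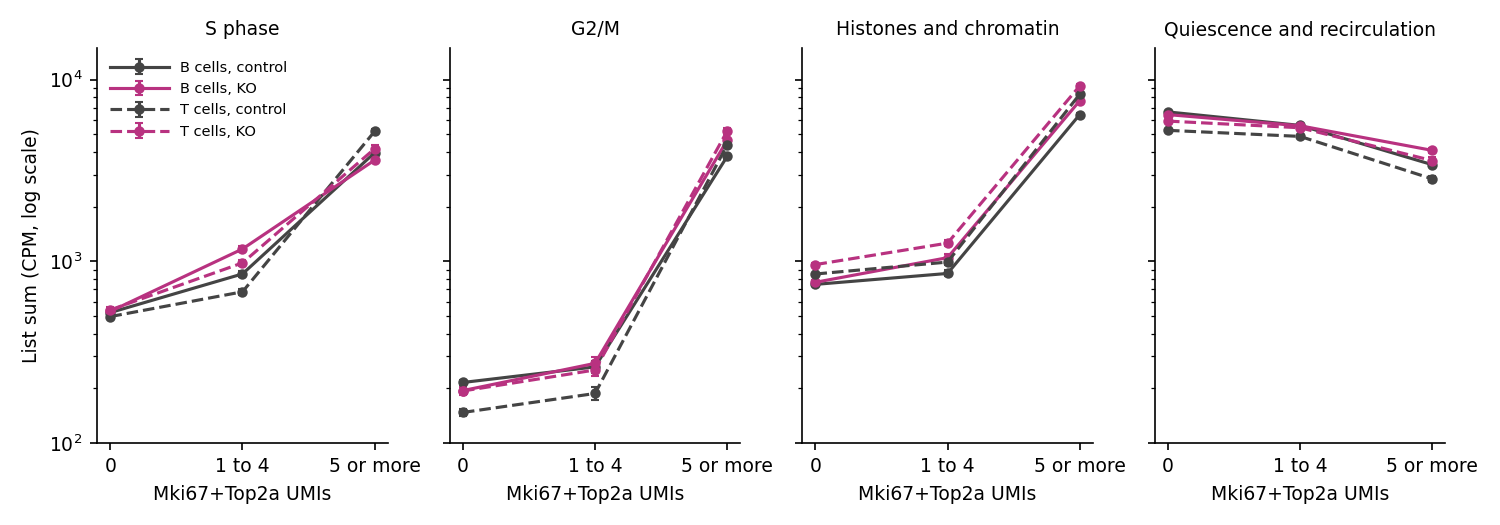
Summed level of 4 gene lists (y axis, CPM, logarithmic) in cells with 0, 1 to 4, and 5 or more UMIs of Mki67 and Top2a (x axis), with exact 95% Poisson intervals, solid lines for B and dashed lines for T cells, in the control and the Flcn iΔEC library. The S phase, G2/M and histone lists lie highest at 5 or more UMIs, such as 3959 CPM for S phase genes in control B cells, and the quiescence list lies lowest there.

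Single genes of the quiescence list were lower by less. In B cells, 14 of 14 tested genes were below the non-cycling cells in both libraries (medians -0.75 and -0.71) and 2, Btg1 and Ccr7, by at least 2-fold. Of all 8298 genes tested in B cells, 3079 were below in both and 1.66% by at least 2-fold. In T cells 15 of 15 were below (medians -0.86 and -0.69) and 1, Btg1, by at least 2-fold. Of all 7880 genes tested in T cells, 2121 were below in both and 1.36% by at least 2-fold. Btg1, which restrains proliferation, had 736 against 1881 CPM and 803 against 1730 CPM in B cells and 574 against 1283 CPM and 518 against 1260 CPM in T cells. Klf2, a factor of quiescence and homing, had log2 ratios of -0.79 and -0.31 in B cells and -0.70 and -0.53 in T cells. Against non-cycling cells of at least 10000 UMIs, 11 of 14 genes in B and 13 of 15 in T cells were below in both libraries, and 0 by at least 2-fold. Of all genes tested against these cells, 2170 of 6433 in B and 1374 of 4963 in T cells were below in both.

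Over all genes, 478 were at least 2-fold higher and 138 at least 2-fold lower in both libraries in cycling B cells, and 660 and 107 in cycling T cells (8.38% and 1.36% of 7880). When CPM were taken without mitochondrial, ribosomal protein, hemoglobin and immunoglobulin genes, the counts were 422 and 205 in B cells and 463 and 247 in T cells, so that the higher share of the calls went from 77.6% to 67.3% and from 86.0% to 65.2%. That scaling moved the median of all T cell genes from 0.17 to -0.02 in control cells and from 0.23 to -0.01 in Flcn iΔEC cells. Of the 7380 genes tested in both lineages, 334 were higher in both, which was 84.8% of the 394 in B cells and 54.1% of the 617 in T cells. A further 13 were lower in both, 11.9% of the 109 in B and 17.1% of the 76 in T cells, among them Btg1, the histone demethylase gene Kdm5b and Lncpint. Without cells of at least 3 epithelial genes, 474 genes were higher and 141 lower in cycling B cells, and 589 and 81 in cycling T cells.

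Outside the lists, the genes with the largest ratios in cycling cells included Spc24, a kinetochore subunit (log2 6.33 and 5.96 in B and 6.64 and 6.34 in T cells), and in T cells Asf1b, a chaperone that delivers histones to new DNA (5.02 and 4.66). Satb1, which organizes chromatin in lymphocytes, was among the genes with the largest drop in cycling B cells (log2 -2.45 and -1.68). Plk2, a kinase of the polo family (-1.69 and -1.56), Gpr183, which positions B cells in follicles (-1.89 and -1.28), and the inhibitory receptor gene Btla (-1.57 and -1.26) were lower as well. In T cells, Il6ra, the interleukin-6 receptor, had log2 ratios of -1.93 and -1.58, and Itpkb, a kinase of antigen receptor signaling, -1.14 and -1.61. Cd40lg, a helper molecule for B cells, was lower (-1.53 and -2.10) on 13 and 4 UMIs. Against non-cycling cells of at least 10000 UMIs, Satb1 (-1.62 and -1.12) and Btla (-1.16 and -1.04) stayed at least 2-fold lower in both libraries. Plk2 (-0.55 and -1.05), Gpr183 (-1.06 and -0.80), Il6ra (-1.43 and -0.94), Itpkb (-0.81 and -0.94) and Cd40lg (-0.75 and -0.95) did not. Klrk1, the activating receptor NKG2D, was higher (3.96 and 5.48), in 7 of the 47 and 3 of the 25 cells, and the signaling adaptors Tyrobp and Fcer1g were higher too (3.16 and 1.50, and 2.10 and 1.30). Against non-cycling T cells of at least 10000 UMIs, Klrk1 stayed higher (3.39 and 4.51), whereas Tyrobp (1.63 and -0.29) and Fcer1g (0.46 and -0.37) differed in direction between the libraries. Ncr1, the receptor of natural killer cells, was found in 4 of the 47 and 3 of the 25 cycling T cells, with 3 to 22 and 4 to 9 UMIs of the CD3 chains, and in 0.332% and 0.114% of the non-cycling T cells. In the control, the 4 cells held 45 of the 70 Klrk1, 59 of the 101 Tyrobp and 39 of the 56 Fcer1g UMIs of cycling T cells. In the Flcn iΔEC library, the 3 cells held 49 of 49, 41 of 41 and 25 of 28. The 10 genes of the NK and cytotoxic list, 9 of them detected in the cycling T cells of each library, summed to 699 against 258 CPM in control cells and 560 against 311 CPM in Flcn iΔEC cells. Without cells that held Ncr1, Klrk1 had 26.8 against 3.57, Tyrobp 45.0 against 9.02 and Fcer1g 18.2 against 10.2 CPM in control cells. In the 22 remaining cycling Flcn iΔEC T cells, Klrk1 and Tyrobp had 0 UMIs and Fcer1g had 3. Of the 10 general T cell genes, 8 were below in both libraries (medians -0.46 and -0.22) and 0 by at least 2-fold. These 10 include Cd3d, Cd3e and Cd3g, which chose the lineage. Of all 7880 genes tested in T cells, 2121 were below in both and 1.36% by at least 2-fold. Without cells of at least 3 epithelial genes, 5 of the 10 were below in both, with medians of -0.46 and 0.10, beside 2034 of all 7775 genes tested. The Flcn iΔEC T cell with epithelial genes held 112786 of the 546733 UMIs of the 25 cycling T cells.

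The hemoglobin genes show how far 1 cell can carry such a value. Hba-a2, Hba-a1 and Hbb-bs had the most negative ratios in cycling T cells (-6.07 and -6.01, -5.57 and -5.08, -4.56 and -5.04). In each library a single non-cycling T cell held most of these UMIs, with 2920 of 3071 for Hba-a1 in control cells and 2132 of 2253 in Flcn iΔEC cells. With the limit lowered to 3 UMIs of Mki67 and Top2a, the ratios of all 3 genes were positive.

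**Figure D5:**
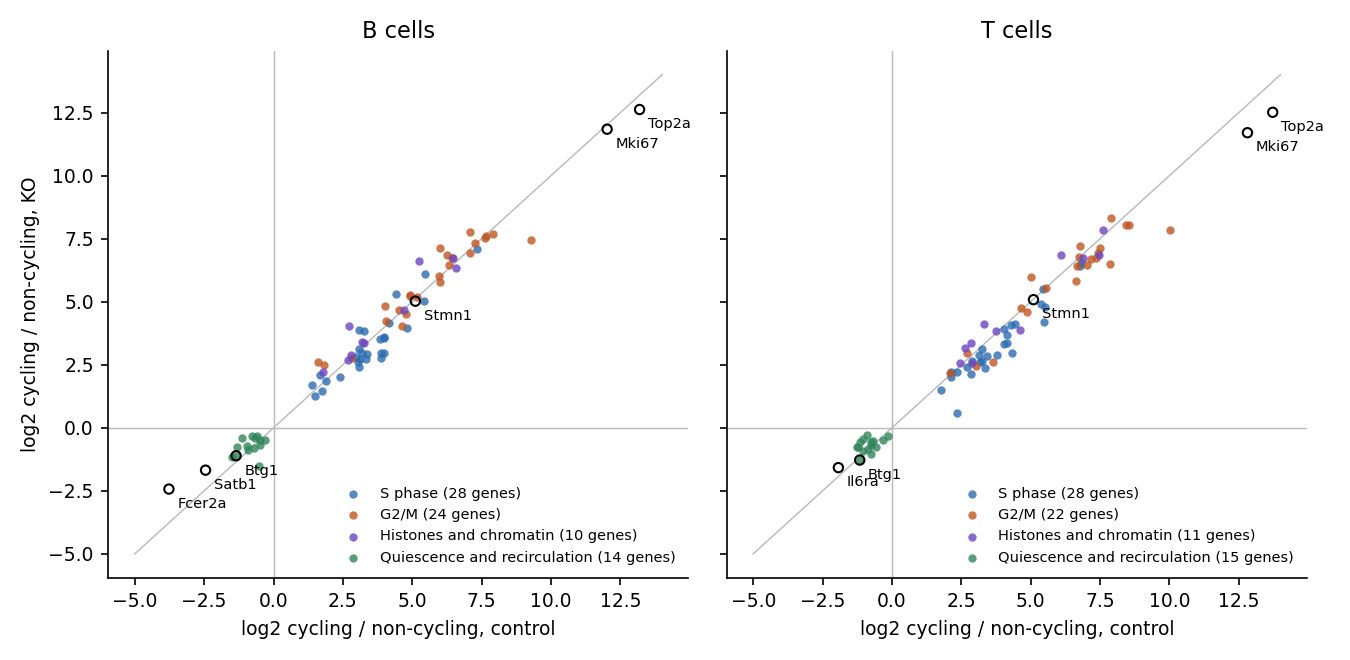
Each point is 1 gene, with its log2 ratio of cycling over non-cycling cells in the control (x axis) and in Flcn iΔEC cells (y axis), for B cells (left) and T cells (right), coloured by gene list. The S phase and G2/M genes lie high on both axes, with medians of 3.30 and 5.98 in control B cells, and the quiescence genes lie below 0.

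Between the libraries, proliferating B cells differed in few genes. Of 4654 genes tested, 66 were at least 2-fold higher in Flcn iΔEC cells (1.42%) and 60 lower (1.29%). Apart from Xist, which marks the sex of the mice, the largest were the heat shock genes Hspa1a, from 13.4 to 1054 CPM (log2 6.19), and Hspa1b, from 4.46 to 351 CPM (5.98). Hspa1a was found in 7 of the 37 control and 53 of the 57 Flcn iΔEC B cells, and non-cycling B cells showed a ratio of nearly the same size (5.76), so the difference was not one of cycling cells alone. S100a6 and S100a4, calcium-binding proteins, were higher in cycling B cells (1.84 and 1.77) and in non-cycling B cells (1.52 and 1.55).

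Pttg1, which encodes securin, the inhibitor of the protease that separates sister chromatids at anaphase, was higher in cycling B cells of the Flcn iΔEC library, from 19.0 to 125 CPM (6.61-fold, 3.99 to 11.6). It was found in 14 of the 37 control cells, with at most 2 UMIs, and in 41 of the 57 Flcn iΔEC cells, with at most 14. In non-cycling B cells the log2 ratio was -1.31. The S phase list as a whole had a median log2 ratio of -0.16 between the libraries with 0 of 29 genes past 2-fold, and the G2/M list 0.20 with 1 gene higher.

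The genes with the largest drop in cycling B cells rested on 1 cell. Krt8, Lgals2, Lypd8, Lgals4 and Epcam, all genes of gut epithelium, had 96 of 97, 91 of 91, 123 of 125, 141 of 145 and 108 of 119 control UMIs in the B cell with epithelial genes. Without cells that had at least 3 epithelial genes, the largest drops were those of Egr1, an immediate early gene (log2 -1.55, with 45 of its 166 control UMIs in 1 cell), Rilpl2 (-1.37) and Cyp51, an enzyme of sterol synthesis (-1.35).

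In proliferating T cells, 92 of 3962 tested genes were at least 2-fold higher in Flcn iΔEC cells (2.32%) and 85 lower (2.15%). Krt8, Lypd8 and Krt19, which followed Xist, again lay in 1 cell, with 248 of 251, 220 of 221 and 171 of 172 UMIs. Without cells of at least 3 epithelial genes, 41 genes were higher, led after Xist by Hspa1a (5.82), Hspa1b (5.66), Gm8797 (3.25) and Pttg1 (2.69). Gzma, a protease of cytotoxic cells, was lower (-4.30), but 128 of its 147 control UMIs lay in 1 cell. S100a4 was lower, at 143 CPM in control but 23.8 CPM in Flcn iΔEC cycling T cells (-2.49), as was S100a6, at 181 and 45.7 CPM (-1.93), whereas both were higher in the non-cycling T cells of the Flcn iΔEC library (1.03 and 1.17). S100a4 was found in 12 of the 47 and 5 of the 25 cells. The S phase and G2/M lists had medians of -0.26 and 0.24 between the libraries, with 1 gene past 2-fold, the G2/M gene Ccnb2 (1.01).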

How the data were processed

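Single-cell RNA was measured in 1 control and 1 Flcn iΔEC library, each with the CD31+ mesenteric cells of 3 pooled mice. The authors prepared 10x Chromium 3′ v3 libraries, read them on a HiSeq3000, and used Cell Ranger 3.0 to align reads, drop amplification duplicates and count UMIs on mm10 (per the submitters' processing notes). The deposited values are raw UMI counts of 28692 genes per cell, with no normalization. Gene positions are from a GRCm38 annotation and promoters from RefSeq GRCm38.p6. Counts were read with Python 3.11.15, numpy 2.4.6, scipy 1.17.1 and pandas 2.3.3, doublets were called with Scrublet in scanpy 1.11.5 and not removed, and figures were drawn with matplotlib 3.10.9. Counts were summed over cells and scaled to CPM. Genes with at least 50 summed counts were compared as log2 ratios with 1 count added, and a gene was counted at 2-fold or more, in both libraries for cycling over non-cycling cells. These limits are fold sizes and not tests, since each condition was 1 library and cells are not replicates. Intervals at 95% were exact binomial for shares (Clopper-Pearson), exact Poisson for counts and exact conditional for ratios. Where nothing was counted, 3 counts served as the limit. Thinned shares at 2000 UMIs are exact expectations, and those at 5000 UMIs are means of 100 draws. Simulated counts with known ratios were used to test the script for genes. Genes named were those of the selection and the marker lists, Flcn, the 10 largest ratios each way of cycling over non-cycling cells and the 5 largest each way between the libraries, with at least 100 CPM in 1 group. Tfe3, Egr1, Rilpl2 and Cyp51, Hspa1a, Hspa1b, Gm8797 and Pttg1 in T cells, S100a4 and S100a6 in B cells, and Kdm5b and Lncpint were added after their values were seen. The selection of cells and the gene lists were made with earlier results of these data known, and the lists of epithelial and B cell maturation genes were chosen after the data were seen. Alternatives were other limits for cells, lineages and genes, thinning, another scaling, 5 added counts and removal of doublets, and, chosen after seeing the data, removal of cells with epithelial genes, of T cells with at least 3 Cd79a UMIs or of the cycling T cell with the most Foxp3 UMIs of each library, and a reference of non-cycling cells with at least 10000 UMIs. A few genes that these rules name are not reported here.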

Additional observations from a re-analysis of the deposited data

Results flagged for a closer look

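S100a4 and S100a6 differed between the libraries in opposite directions in the cycling lineages. S100a4 had a log2 ratio of Flcn iΔEC over control of 1.77 in cycling B cells and -2.49 in cycling T cells, and S100a6 of 1.84 and -1.93. In non-cycling cells both genes were higher in Flcn iΔEC cells in both lineages. Each value compares 1 library with 1 library, and the difference between the lineages was not tested. Among cycling control T cells, the highest single-cell values were 47 UMIs of S100a4 and 75 UMIs of S100a6.

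Pttg1 differed between the libraries in opposite directions in cycling and non-cycling cells. Its log2 ratio was 2.65 in cycling and -1.31 in non-cycling B cells, and 2.75 in cycling and -1.33 in non-cycling T cells. In the control, all selected cells together had 22.9 CPM (17.1 to 29.9) and non-cycling cells 24.5 CPM (22.9 to 26.2), whereas in Flcn iΔEC cells these were 135 CPM (121 to 150) and 9.03 CPM (7.69 to 10.5). Cdc20, a gene of the G2/M list, had 136 and 138 CPM in the selected cells of the libraries. These differences were not tested.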

How the results depend on the processing

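Over the values that answer a comparison, 323 stayed within the set limits of the reported value under the alternatives and 57 moved, and over named genes 1417 stayed, 132 moved and 8 reversed. With a limit of 3 UMIs of Mki67 and Top2a, the selected share was 3.08% in control cells and 6.17% in Flcn iΔEC cells (B cells 2.92% and 6.89%, T cells 3.07% and 4.47%), cells with S at or above G2/M 71.7% and 65.7%, and the genes lower in cycling cells 75 in B and 47 in T cells. Thinning to 5000 UMIs gave 1.10% and 2.18% (B cells 0.875% and 2.40%, control T cells 0.982%). With at most 5% mitochondrial UMIs, the control share was 2.45%, the B cell shares 4.42% and 8.73%, the genes higher in cycling B cells 293 and those higher in Flcn iΔEC T cells 42. The latter were 41 with at least 2 Ptprc UMIs, 39 with a lineage limit of 5 and 41 without cells with epithelial genes, and those lower were 56 with a lineage limit of 1. Without thinning, cycling and non-cycling T cells with a UMI were 12.8% and 3.65% for Foxp3, 53.2% and 50.8% for Cd4 and 23.4% and 18.2% for Cd8a in the control, and in Flcn iΔEC cells 48.0% and 37.3% for Cd4 and, for non-cycling cells, 2.73% for Foxp3 and 24.3% for Cd8a. A minimum of 200 counts left 197 higher and 80 lower genes in cycling B and 237 and 53 in cycling T cells, and 10 and 2 between the libraries in B and 13 and 6 in T cells. With no minimum, 3022 genes were higher in cycling B and 4317 in cycling T cells, and 813 higher and 2195 lower between the libraries in B and 2232 and 951 in T cells. With 5 counts added, 54 genes were lower in cycling B and 25 in cycling T cells, and between the libraries 39 were higher in B and 39 lower in T cells. With CPM without mitochondrial, ribosomal protein, hemoglobin and immunoglobulin genes, 247 were lower in cycling T cells. Against non-cycling cells of at least 10000 UMIs, 313 genes were higher and 37 lower in cycling B cells and 274 and 28 in cycling T cells, of which 290 and 30 and 269 and 21 were among those reported. Reversed values were Hba-a2 (1.56 and 3.22), Hba-a1 (1.96 and 3.34) and Hbb-bs (2.24 and 3.14) in T cells of both libraries with the limit of 3, and Nrgn (0.99) and Lmo4 (0.90) between the libraries in T cells with the lineage limit of 1. The cause of these moves was not tested. No paired analysis was possible because each condition was 1 library. No value has a replicate check, small sets of cells such as the 25 cycling Flcn iΔEC T cells limit the gene comparisons, and sex, genotype and library cannot be told apart.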
